A study of Homo sapiens with 4 samples.

Results

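The 10 genes described here belong to the non-canonical NF-kB pathway, as regulators, receptors or targets. They are TRAF1, TRAF2, TRAF3, BIRC2, BIRC3, MAP3K14, CYLD, CD40, LTBR and TNFAIP2, chosen by name as genes upstream of NF-kB that are recurrently altered in myeloma, with TNFAIP2 added as a target. All 10 were found among the 56809 genes of the count table, and 9 of them passed the filter on low counts, as did 17885 genes in all. Poly(A)-selected RNA was sequenced with a stranded kit from NCI-H929, an established human myeloma line derived from malignant plasma cells. In the BCL7A KO group (2 libraries), cells that expressed the nuclease Cas9 had been transduced with a doxycycline-inducible construct for knockout of BCL7A, a subunit of BAF chromatin remodelling complexes. In the control group (2 libraries), Cas9-expressing cells had received a control construct by the protocol, whereas their titles and genotype labels call them wild type. Both groups had 3 days of puromycin selection and then 0.5 ug/ml doxycycline for 24 h before RNA was taken. Neither the labels nor the protocols say whether the KO cells were a pool or a clone. Nor do they say whether libraries sharing a label stem from different cultures. The p-values therefore set the difference between the groups only against the spread of these libraries, which may be technical spread.

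In resting cells the pathway is held off by degradation of its kinase. TRAF3 binds NIK, the kinase encoded by MAP3K14, and TRAF2 brings in the ubiquitin ligases cIAP1 and cIAP2, encoded by BIRC2 and BIRC3, which mark NIK for the proteasome. When a receptor such as CD40, BAFF-R or the lymphotoxin beta receptor draws TRAF3 away, NIK accumulates, IKK-alpha is activated, and p100, the product of NFKB2, is cut to p52, which enters the nucleus with RELB. Loss of TRAF3, of BIRC2 and BIRC3 or of CYLD, and gain of MAP3K14 or CD40, are known genetic lesions of myeloma, and BIRC3, TRAF1 and TNFAIP2 are themselves NF-kB target genes. NIK is controlled largely at the protein level, which mRNA counts do not show.

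BCL7A itself had 46 and 44 counts in the KO libraries, against 830 and 1014 counts in the control libraries. The KO libraries were about as deep as each other (38671744 and 40799624 gene counts) and deeper than the control libraries (17567202 and 20153596). Each group's libraries differed by more than sampling noise and were counted separately. That spread was small, with a fitted biological coefficient of variation of 2.32%. All 11 markers of plasma cells and of this line were expressed in all 4 libraries and rose (summed level 13363 to 13376 CPM in KO, 7805 to 7838 CPM in control libraries), including FGFR3 and NSD2, the genes that the t(4;14) translocation of this line activates. Markers of other cell types moved with the groups too. Of 8 tested mature B cell markers, 1 rose and 7 fell, with a summed level of 42.8 to 45.1 CPM in KO and 560 to 570 CPM in control libraries, and of 5 tested T and NK cell markers 4 fell (15.4 CPM in both KO libraries, 30.8 to 31.5 CPM in control libraries). Of 8 tested epithelial markers, 1 rose, 3 fell and 4 were not called (15.9 to 16.8 CPM in KO, 71.3 to 76.6 CPM in control libraries). EPCAM had 0 counts in both KO libraries, against 993 and 1207 counts in the control libraries, where it gave 51.4 and 54.4 CPM of the sum. KRT18 rose (6.27 and 6.71 CPM in KO, 2.69 and 1.17 CPM in control libraries). Of 5 tested myeloid markers 3 rose and 2 fell (60.8 to 62.9 CPM in KO, 32.4 to 35.1 CPM in control libraries), and of 5 tested stromal markers 3 rose and 2 fell (1139 to 1145 CPM in KO, 561 to 574 CPM in control libraries). These sums rest largely on single genes. VIM gave 1027 and 1031 CPM of the stromal sum in KO and 509 and 520 CPM in control libraries. PECAM1 rose too (97.8 and 99.2 CPM in KO, 32.6 and 35.4 CPM in control libraries), as did ACTA2. The 2 that fell were COL1A2 and COL1A1, the latter with 0.370 and 0.298 CPM in KO and 9.88 and 9.82 CPM in control libraries. CD68 gave 57.8 and 56.3 CPM of the myeloid sum in KO and 26.0 and 29.4 CPM in control libraries, and CD3E averaged 13.9 ± 0.185 CPM of the T and NK cell sum in KO and 23.9 ± 0.665 CPM in control libraries (SD, n = 2 each). Of the mature B cell sum, CD79B, which rose, gave 29.9 and 32.3 CPM in KO and 16.5 and 20.6 CPM in control libraries. CD74 gave 1.17 and 1.65 CPM of it in KO and 263 and 269 CPM in control libraries. CD3D, MPO, KRT19 and LUM were at 0 in all 4 libraries. The part that any of these played in the results below was not tested, and in bulk RNA fewer cells with a transcript cannot be told apart from less of it per cell.

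The promoters of the members are shown first, because NF-kB feeds back on several of these genes. The RefSeq promoter table (GRCh38.p14, 250 bases before to 50 after a start) held windows for 9 of the 10 genes. The kB consensus, the sequence that NF-kB dimers bind, was searched on both strands as a pattern of 10 bases. It was found in at least 1 window of 3 of these 9 genes, TRAF3, BIRC3 and CYLD, and in 7.09% of all 27305 genes with a window. For comparison, 3 windows are given 5' to 3' on the strand of the gene with each match in capitals. They are those of TRAF3 (chr14:102777199-102777498, plus strand) and BIRC3 (chr11:102317234-102317533, plus strand), which fell and hold matches, and of BIRC2 (chr11:102346964-102347263, plus strand), the neighbour and paralog of BIRC3, which holds none. TRAF1, TRAF2, MAP3K14 and TNFAIP2 fell too and hold no match in any window.
TRAF3: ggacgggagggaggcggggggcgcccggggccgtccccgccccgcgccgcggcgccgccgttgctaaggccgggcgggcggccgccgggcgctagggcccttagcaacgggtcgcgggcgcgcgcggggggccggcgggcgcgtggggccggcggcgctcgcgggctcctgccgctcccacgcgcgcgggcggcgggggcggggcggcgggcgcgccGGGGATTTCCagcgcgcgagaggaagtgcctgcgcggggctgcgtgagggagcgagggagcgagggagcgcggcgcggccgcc
BIRC3: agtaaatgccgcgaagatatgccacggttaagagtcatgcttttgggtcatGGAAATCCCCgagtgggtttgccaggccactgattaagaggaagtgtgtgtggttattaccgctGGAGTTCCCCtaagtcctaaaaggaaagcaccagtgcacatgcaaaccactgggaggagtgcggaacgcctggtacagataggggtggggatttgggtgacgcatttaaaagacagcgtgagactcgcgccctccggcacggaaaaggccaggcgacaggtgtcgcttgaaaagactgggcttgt
BIRC2: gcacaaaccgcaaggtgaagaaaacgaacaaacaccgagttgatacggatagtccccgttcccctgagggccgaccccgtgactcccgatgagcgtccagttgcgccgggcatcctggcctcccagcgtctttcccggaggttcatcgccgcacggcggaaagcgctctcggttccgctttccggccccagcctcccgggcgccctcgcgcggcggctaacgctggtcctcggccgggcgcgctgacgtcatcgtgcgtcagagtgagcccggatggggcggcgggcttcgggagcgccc
The match in the TRAF3 window, GGGGATTTCC, lies at positions -33 to -24 from the start. The same 10 bases occur in the BIRC3 window on the opposite strand, at positions -199 to -190. BIRC3 has another match on the opposite strand, GGGGAACTCC, at positions -135 to -126. CYLD has several annotated starts, and 2 of its 3 windows hold a match, GGGACTTTCC and GGGGCTTCCC. Of all 35116 windows, 0.111% hold GGGGATTTCC, 0.0883% GGGGAACTCC, 0.191% GGGACTTTCC and 0.308% GGGGCTTCCC. Each single form is thus rare, and the rarity of the shared one carries no weight, since it was picked after it was found. These matches are descriptions of letters and not binding sites measured here, and a window without a match says nothing of sites elsewhere.

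Of the 9 tested genes, 1 was higher and 8 were lower in KO at an adjusted p under 0.05 (edgeR's quasi-likelihood test with Benjamini-Hochberg adjustment over all tested genes). Over all tested genes, 36.4% were called higher and 39.8% lower, so a call by itself says little here. By size, 6 of the 9 were at least 2-fold lower, against 23.5% of all tested genes, and 0 were at least 2-fold higher, against 9.47%. Among the 6 is TNFAIP2, with 0 and 2 counts in the KO libraries. It passed the filter on low counts only through the control group, so its direction was fixed by the filter. The median log2 fold change (KO over control throughout) was -1.37 for the 9 genes and -0.06 for all tested genes. The members, like the lists below, were chosen with earlier results of these data known. Their shares and medians therefore describe the chosen genes and are no test of the pathway. The values of both groups did not overlap for any of the 9, which was also so for 41.3% of tested genes toward higher and 46.1% toward lower values in KO. Levels are given as CPM, a count scaled by the size of its library and its TMM factor, and SE is the standard error of a difference on the log2 scale.

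**Figure D1:**
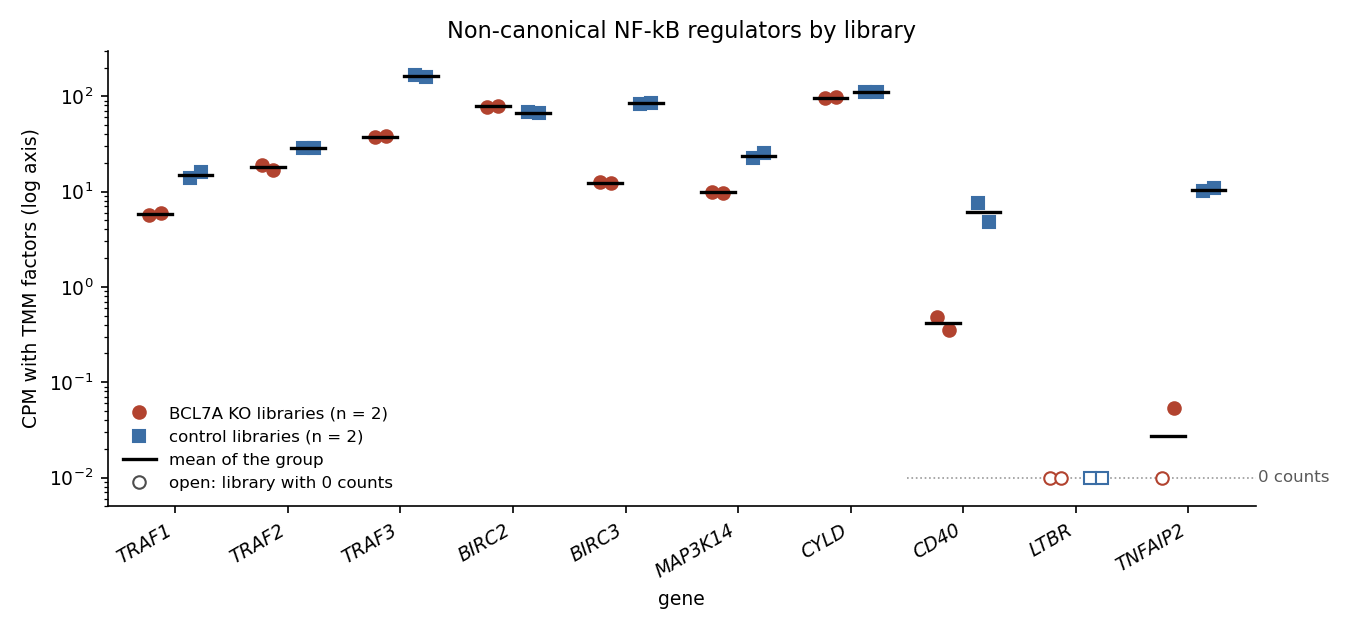
Level of each of the 10 genes in each library, in CPM on a log axis, with the BCL7A KO libraries as circles on the left and the control libraries as squares on the right of each gene (n = 2 each, bars are group means). TRAF3, BIRC3, CD40 and TNFAIP2 show the widest gaps, BIRC2 and CYLD the narrowest, and LTBR had 0 counts in every library.

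TRAF3, the adaptor that delivers NIK for degradation, fell 4.34-fold. It had 36.9 and 38.2 CPM in the KO libraries, against 168 and 159 CPM in the control libraries (difference on the log2 scale -2.12 ± 0.04 SE, edgeR adjusted p = 3.34e-26). Both KO libraries were far below both control libraries, and the gap was many times the difference within either group. TRAF3 lies on chromosome 14, from 102777476 to 102911500 on the plus strand (GRCh38).

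TRAF2, the adaptor that carries the cIAP ligases, fell less. It had 18.9 and 17.0 CPM in the KO libraries, against 28.8 and 28.6 CPM in the control libraries (difference on the log2 scale -0.68 ± 0.07 SE, edgeR adjusted p = 2.06e-09). The KO libraries differed from each other by more than the control libraries did, without overlap between the groups. TRAF1, an NF-kB target whose protein lacks the RING domain of its relatives, had 5.61 and 5.98 CPM in the KO libraries and 13.9 and 16.0 CPM in the control libraries (difference on the log2 scale -1.37 ± 0.12 SE, edgeR adjusted p = 2.26e-11). All 3 TRAF adaptors were therefore lower in KO, TRAF3 the most and TRAF2 the least. TRAF1 (120902393 to 120929173, minus strand) and TRAF2 (136881912 to 136926607, plus strand) both lie on chromosome 9, 15953 kb apart.

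The 2 cIAP genes parted. BIRC3 fell 6.80-fold, with 12.5 and 12.3 CPM in the KO libraries against 82.6 and 85.8 CPM in the control libraries (difference on the log2 scale -2.77 ± 0.06 SE, edgeR adjusted p = 1.68e-25). BIRC2 had 77.3 and 78.9 CPM in the KO libraries and 67.9 and 66.1 CPM in the control libraries (difference on the log2 scale 0.22 ± 0.04 SE, edgeR adjusted p = 2.75e-05). The BIRC3 groups were far apart, while those of BIRC2 were separate but close. BIRC2 was the only member that rose, and that call depended on the scaling: with upper-quartile factors, which shift all genes by a median of -0.13 on the log2 scale, it was 0.09 with an adjusted p of 0.0609. The genes are neighbours on the plus strand of chromosome 11, BIRC3 from 102317450 to 102339403 and BIRC2 from 102347211 to 102378670, with 7.81 kb between them.

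MAP3K14, which encodes NIK, fell 2.43-fold. It had 10.0 and 9.58 CPM in the KO libraries, against 22.3 and 25.2 CPM in the control libraries (difference on the log2 scale -1.28 ± 0.09 SE, edgeR adjusted p = 4.39e-13). Both KO libraries were below both control libraries. The gene (chromosome 17, 45263119 to 45317145, minus strand) shares 713 exonic bases with the antisense gene MAP3K14-AS1 on the other strand. That gene had 123 and 108 counts in the KO libraries and 92 and 93 counts in the control libraries, and although the library kit was stranded by the labels, the strand setting used in counting is not known, so some reads could have been assigned to either gene.

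CYLD, a deubiquitinase that removes the ubiquitin chains on which IKK activation depends, fell only 1.15-fold. It had 94.9 and 97.5 CPM in the KO libraries, against 110 and 111 CPM in the control libraries (difference on the log2 scale -0.20 ± 0.04 SE, edgeR adjusted p = 1.13e-05). The groups did not overlap, and across 12 other settings the log2 fold change stayed between -0.34 and -0.12 with an adjusted p of at most 0.0232. Its size is close to the shift between scalings. CYLD is on chromosome 16, from 50742050 to 50801935 on the plus strand.

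Of the receptors, CD40 was low in the control and nearly absent from the KO libraries. CD40, which receives the T cell signal CD40 ligand in B cells, had 17 and 13 counts in the KO libraries and 146 and 106 counts in the control libraries, or 0.484 and 0.352 CPM in KO and 7.55 and 4.78 CPM in control. Relative to their mean, the control libraries differed from each other more for CD40 than for any other detected member, but both were well above the KO libraries (difference on the log2 scale -3.86 ± 0.28 SE, edgeR adjusted p = 3.13e-12; 14.6-fold lower). CD40 is on chromosome 20, from 46118272 to 46129863 on the plus strand. LTBR, the lymphotoxin beta receptor, which stromal and myeloid cells express and lymphocytes mostly do not, had 0 counts in each of the 4 libraries. A count of 0 allows up to 3 counts, which is 0.0416 CPM over the KO group and 0.0723 CPM over the control group (counting error only), so LTBR was not detectable at this depth and no difference could be tested. LTBR lies on chromosome 12, from 6375045 to 6391571 on the plus strand.

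TNFAIP2, a target gene induced by tumour necrosis factor, showed the widest gap of all members. It had 0 and 2 counts in the KO libraries, against 194 and 239 counts in the control libraries, or 0 and 0.0541 CPM in KO and 10.0 and 10.8 CPM in control. The level in the control group was 376 times that in the KO group, with an exact 95% Clopper-Pearson counting interval of 103 to 3113 (edgeR adjusted p = 2.07e-18). The fitted log2 fold change of -8.34 rests on the 2 counts of KO replicate 2 and was -11.05 without that library and -7.45 without KO replicate 1. TNFAIP2 lies on chromosome 14 from 103123442 to 103137439 on the plus strand, 212 kb beyond the end of TRAF3.

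Levels of different genes were compared per length, as CPM per kb of the longest annotated transcript. In the KO libraries BIRC2 led with 19.2 ± 0.280 CPM per kb, followed by CYLD (11.3 ± 0.214), TRAF2 (7.92 ± 0.571), TRAF3 (4.88 ± 0.123), BIRC3 (2.39 ± 0.0366), MAP3K14 (2.14 ± 0.0639), TRAF1 (0.916 ± 0.0415) and CD40 (0.241 ± 0.0540; SD, n = 2 each). Neighbours in this order did not overlap between libraries. TNFAIP2 and LTBR came last and could not be told apart. In the control libraries TRAF3 led with 21.2 ± 0.793 CPM per kb. BIRC2 (16.5 ± 0.311) and BIRC3 (16.2 ± 0.443) overlapped behind it, ahead of CYLD (13.0 ± 0.0893), TRAF2 (12.7 ± 0.0632), MAP3K14 (5.19 ± 0.452) and CD40 (3.56 ± 1.13). TRAF1 (2.37 ± 0.232) and TNFAIP2 (2.22 ± 0.110) overlapped. TRAF3 thus ranked 4 among the 10 genes in the KO libraries and 1 in the control libraries, and BIRC3 ranked 5 in the KO and 3 in the control libraries, an order within each group that does not depend on scaling between the groups. It does depend on the transcript lengths: the place of TRAF3 below TRAF2 in KO comes from dividing by 7.7 kb for TRAF3 and 2.264 kb for TRAF2, and by counts TRAF3 was the higher of the pair in every library.

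**Figure D2:**
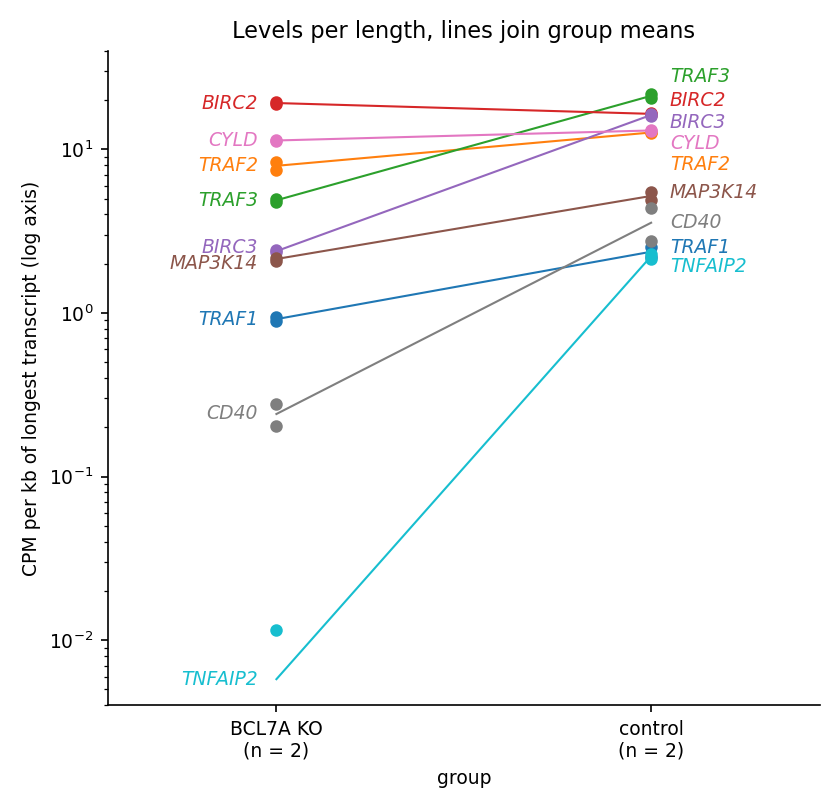
CPM per kb of the longest transcript, on a log axis, for the BCL7A KO libraries (left) and the control libraries (right), with 1 colour per gene, points for libraries and lines between group means (n = 2 each). LTBR and the KO library with 0 TNFAIP2 counts are left out because a log axis has no 0. TRAF3 crosses below BIRC2, CYLD and TRAF2 in the KO libraries, and BIRC3 crosses below CYLD and TRAF2.

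Ratios of counts within a library do not depend on scaling either. BIRC3 over BIRC2 was 0.162 and 0.155 in the KO libraries, against 1.22 and 1.30 in the control libraries, 7.91 times as high in the control libraries. TRAF3 over TRAF2, a pair chosen after its values were seen, was 1.96 and 2.25 in the KO libraries, against 5.83 and 5.57 in the control libraries. TRAF1 over TRAF2 was 0.298 and 0.351 in the KO libraries and 0.484 and 0.560 in the control libraries. The ratio between the mRNAs of the kinase and its adaptor went the other way. MAP3K14 over TRAF3 was 0.271 and 0.251 in the KO libraries, against 0.133 and 0.159 in the control libraries, 1.79 times as high in KO, since TRAF3 fell by more than MAP3K14. Set against BIRC2, MAP3K14 was lower in KO, with 0.129 and 0.121 in the KO libraries against 0.328 and 0.381 in the control libraries. For the NF-kB subunits at the end of the pathway, NFKB2 over NFKB1 was 2.47 and 3.05 in the KO libraries and 1.14 and 1.23 in the control libraries, while RELB over RELA was 0.239 and 0.240 in the KO libraries and 0.529 and 0.516 in the control libraries. NFKB2 itself was not raised, with 82.5 and 90.5 CPM in the KO libraries and 97.7 and 100 CPM in the control libraries. Its ratio was higher in KO because NFKB1 fell by more. None of the 7 ratios overlapped between the groups, and the exact two-sided permutation test over 4 libraries gave p = 0.333 for each, the smallest it can give with 2 against 2.

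**Figure D3:**
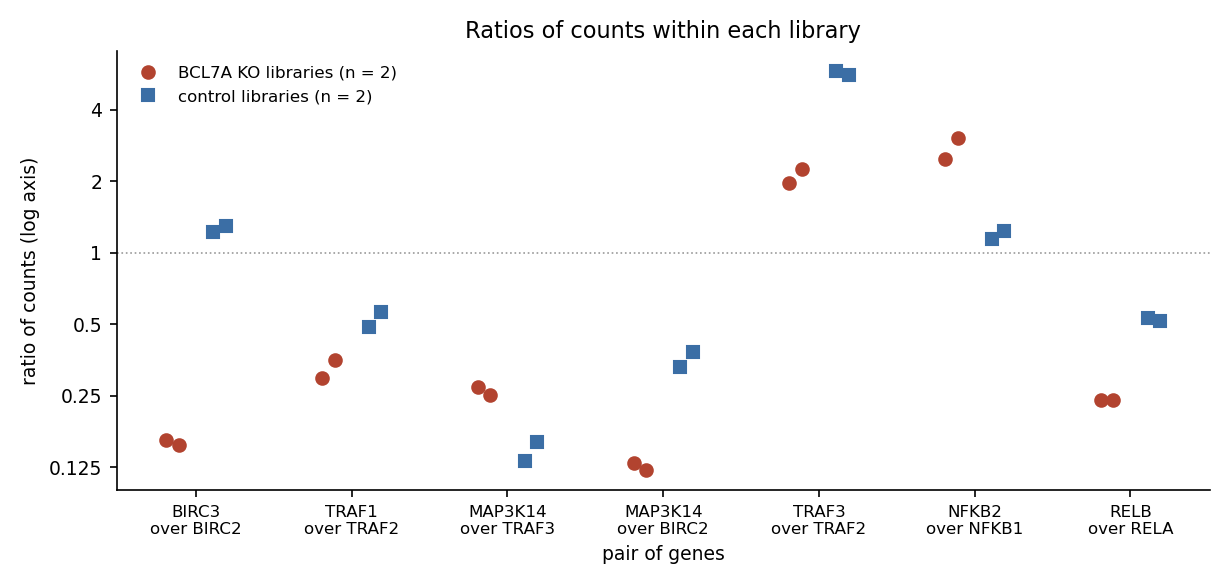
Ratio of counts between pairs of genes within each library, on a log axis, with BCL7A KO libraries as circles and control libraries as squares (n = 2 each). BIRC3 over BIRC2 shows the widest gap. MAP3K14 over TRAF3 and NFKB2 over NFKB1 are the pairs in which the ratio is higher in the KO libraries, although both genes of each pair were lower in KO.

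Around the 10 genes, 6 lists of further genes of the pathway held 79 genes, of which 73 were tested. Of these, 21 rose and 42 fell, 26 of them at least 2-fold, with a median log2 fold change of -0.43. Among all tested genes 36.4% rose, 39.8% fell and 23.5% fell at least 2-fold, and the counts of each list below stand against the same shares. The ligands and the receptors had the lowest medians. Of 7 tested ligands of the tumour necrosis factor family, 0 rose and 6 fell (median -4.34). LTA, LTB, TNFSF12, TNFSF13 and TNFSF14 had at most 5 counts in either KO library. They passed the filter on low counts only through the control group, so their direction was fixed by the filter. The median is the value of TNFSF13, which had 3 and 1 counts in the KO libraries and 25 in each control library. LTA and LTB, which form the lymphotoxins that bind LTBR, had 4 and 6 counts over the KO group, against 220 and 408 counts over the control group. TNFSF12, which encodes TWEAK, had 0 counts in KO and 85 counts in control, at least 49.2-fold higher in control. CD70, the ligand of CD27, had 0.968 and 1.22 CPM in the KO libraries against 15.5 and 17.5 CPM in the control libraries. TNFSF13B, the ligand BAFF, did not pass the threshold (0.683 and 0.731 CPM in KO, 0.880 and 0.901 CPM in control libraries, adjusted p = 0.464 by edgeR). Leaving out KO replicate 1 or 2 turned the fitted log2 fold change of LTB, -6.81, into -8.25 or -6.05.

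Of 8 other tested receptors, 1 rose and 7 fell (median -2.22). TNFRSF17, which encodes the plasma cell receptor BCMA, was the one that rose, with 595 and 594 CPM in the KO libraries against 277 and 282 CPM in the control libraries. It was also counted among the plasma cell markers above. CD27 had 1 count over the KO group and 758 counts over the control group, a ratio of control to KO of 1316 with an exact 95% Clopper-Pearson counting interval of 235 to 52032. TNFRSF8, which encodes CD30, had 9 counts over the KO group and 408 counts over the control group. Like CD27, it passed the filter on low counts only through the control group, which fixed the direction of both genes. Without KO replicate 1 or 2, the log2 fold change of TNFRSF8 (-6.25) was -7.37 or -5.58 and that of CD27 (-9.97) was -9.15 or -11.86. TNFRSF1A, the type 1 receptor of tumour necrosis factor, had 11.2 and 10.8 CPM in the KO libraries and 29.6 and 30.5 CPM in the control libraries. Both TNFRSF1A and CD27 were among the 20 nearest tested genes of LTBR on chromosome 12.

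Inside the cell the lists were mixed. Of 10 other TRAF and IAP genes 5 rose and 4 fell (median 0.06), and with upper-quartile factors 3 rose. TRAF4 (27.1 and 26.6 CPM in KO, 78.5 and 73.7 CPM in control libraries) and TRAF3IP2, which encodes an adaptor of interleukin-17 signalling (0.598 and 0.568 CPM in KO, 13.5 and 13.2 CPM in control libraries), fell. TRAF7 (121 and 118 CPM in KO, 76.5 and 78.2 CPM in control libraries) and the caspase inhibitor XIAP (310 and 329 CPM in KO, 234 and 232 CPM in control libraries) rose. Of 8 IKK and NF-kB subunit genes 4 rose and 4 fell (median -0.03), and with upper-quartile factors 2 rose. RELB, the partner of p52, had 21.1 and 20.6 CPM in the KO libraries and 56.0 and 55.2 CPM in the control libraries (difference on the log2 scale -1.41 ± 0.06 SE). NFKB1, which encodes p105 and p50, had 33.4 and 29.7 CPM in the KO libraries and 85.8 and 81.9 CPM in the control libraries (-1.41 ± 0.05 SE). RELA fell less (-0.29 ± 0.04 SE), and CHUK, which encodes IKK-alpha, rose (0.43 ± 0.06 SE).

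Of 18 ubiquitin editors and IKK activators, 7 rose and 8 fell (median 0.08). TNFAIP3, which encodes the feedback inhibitor A20, had 18.1 and 19.0 CPM in the KO libraries and 48.0 and 48.5 CPM in the control libraries (difference on the log2 scale -1.38 ± 0.06 SE). RBCK1, which encodes the LUBAC subunit HOIL-1, had 36.2 and 35.3 CPM in the KO libraries and 74.3 and 75.4 CPM in the control libraries, and the TAK1 adaptor gene TAB2 had 58.8 and 55.8 CPM in KO against 107 and 106 CPM in control libraries. UCHL1, a ubiquitin hydrolase gene, rose to 471 and 470 CPM in the KO libraries, against 152 and 161 CPM in the control libraries. Of 22 tested NF-kB target genes, 4 rose and 13 fell (median -0.47). IL2RG, the common cytokine receptor chain, had 1.40 and 2.00 CPM in the KO libraries and 84.6 and 82.8 CPM in the control libraries. CD74, also counted among the mature B cell markers above, had 1.17 and 1.65 CPM in KO against 263 and 269 CPM in control libraries. WNT10A had 0.114 and 0.189 CPM in KO against 19.4 and 18.5 CPM in control libraries. BCL2L1, which encodes the survival protein BCL-XL, rose, with 76.2 and 74.1 CPM in the KO libraries against 30.3 and 31.1 CPM in the control libraries.

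**Figure D4:**
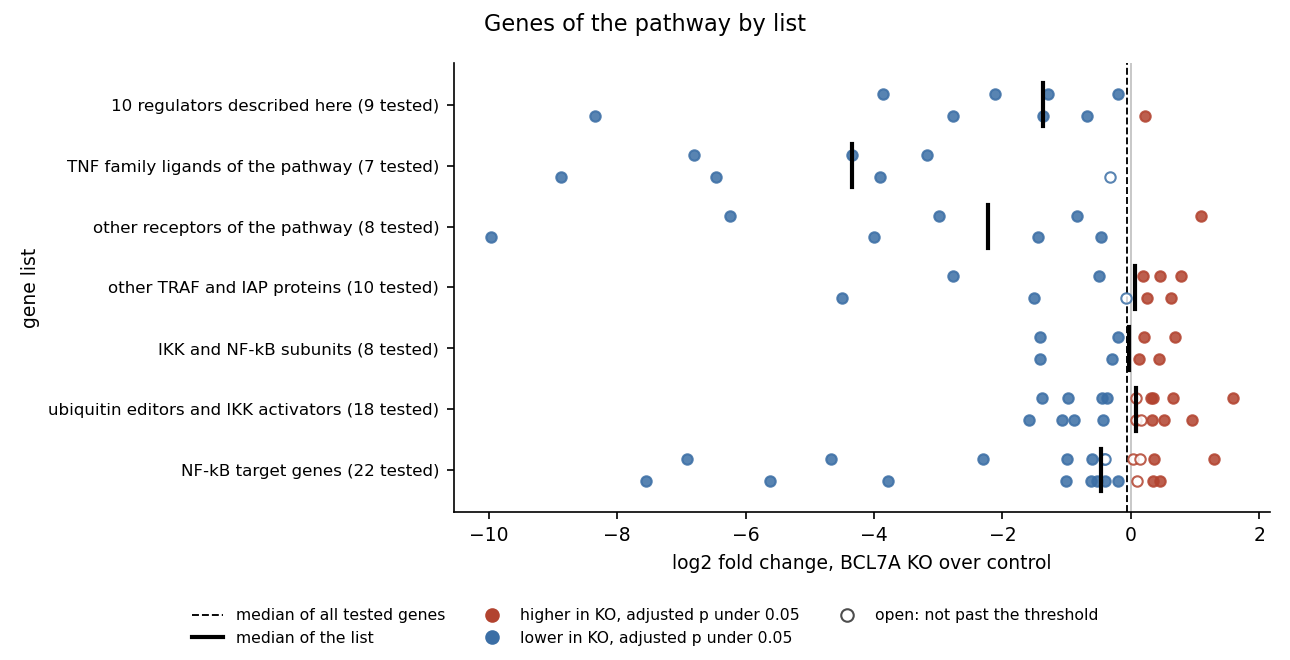
Each tested gene by its log2 fold change (BCL7A KO over control), for the 10 regulators and 6 further lists of the pathway, with filled points past an adjusted p of 0.05 by edgeR and bars at the list medians. The medians of ligands (-4.34) and receptors (-2.22) lie far below the median of all tested genes (-0.06, dashed), while those of the other TRAF and IAP genes, of the IKK and NF-kB subunits and of the ubiquitin editors lie near 0. Several ligands and receptors passed the filter on low counts only through the control group, so the filter fixed their direction.

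The members were then set beside the 10 nearest tested protein-coding genes on either side. The 20 neighbours of TRAF3 had a median log2 fold change of -0.29, with 4 called higher and 14 called lower where 36.4% and 39.8% of all tested genes were, and 4 of the 20 lay below TRAF3, TNFAIP2 among them. TNFAIP2 (neighbour median -0.31) was below all 20 of its own. The 20 neighbours of BIRC3, spread over 9985 kb, had a median of 0.19, and only 1 lay below BIRC3. CD40 (neighbour median 0.09) and TRAF1 (0.03) each had 2 neighbours below them, and MAP3K14 (-0.15) had 3. TRAF2 had its 20 neighbours within 357 kb, with a median of -1.34 and 12 of 20 below it. The 20 neighbours of CYLD, spread over 6995 kb, had a median of 0.68, with 13 called higher and 2 lower, and 3 lay below CYLD. The 2 called lower were the nearest, named after their values were seen: NOD2 (-7.28, at -58.2 kb) and SNX20 (-10.66, at -98.2 kb). The spans differ widely, so the medians are not backgrounds of like width. These comparisons are descriptions, with no test.

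**Figure D5:**
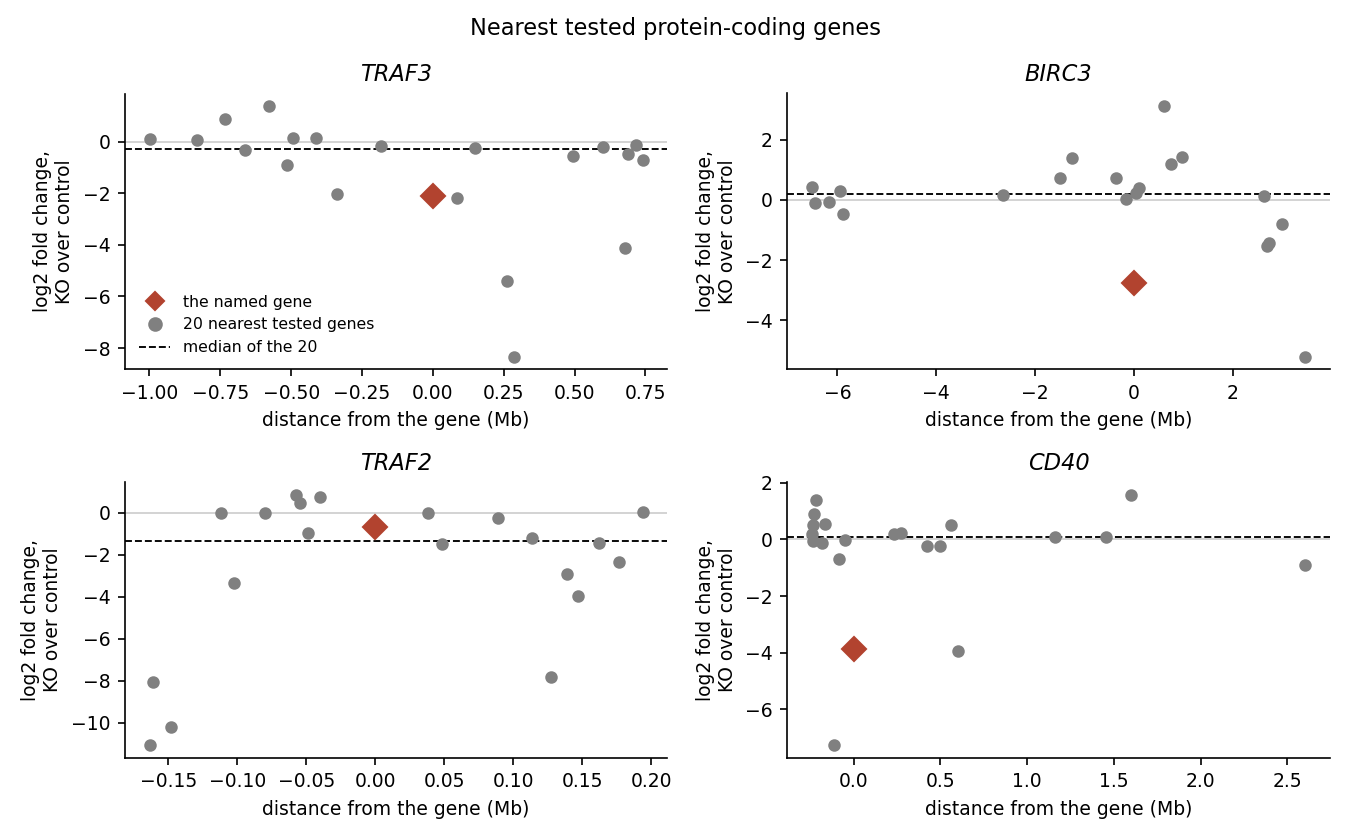
Log2 fold change (BCL7A KO over control) of TRAF3, BIRC3, TRAF2 and CD40 (diamonds) and of the 20 nearest tested protein-coding genes (grey points), against the distance between gene midpoints in Mb, with dashed lines at the neighbours' medians. TRAF3, BIRC3 and CD40 lie below their neighbours' medians (-0.29, 0.19 and 0.09), and TRAF2 lies above its own (-1.34).

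By the distance of log2 CPM centred per gene over 4 libraries, among 9537 tested genes averaging 10 CPM or more, the patterns most like that of TRAF3 were those of ARGLU1 (distance 0.0449), AC078846.1 (0.0465) and GUSBP11 (0.0642). For MAP3K14 they were ZNF48 (0.0433), NUAK2 (0.0616) and ARHGEF3 (0.0629). With 2 groups of 2, such a distance is set almost wholly by the size of the difference between the groups.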

How the data were processed

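Poly(A) RNA-seq counts from 2 BCL7A KO and 2 control libraries of NCI-H929 cells were used. The deposited values are estimated counts, 1 per gene and library, all of them whole numbers. The submitters' processing notes name Salmon 0.12 and GRCh38. Which annotation and strand setting the authors chose is not given in the sources. All 56809 gene names were found in GENCODE 29 (GRCh38), which gave coordinates and transcript lengths. The 92 rows of ERCC spike-ins (at most 5 counts per library in sum) were left out.

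Genes were filtered with filterByExpr, scaled with TMM (factors 0.909 and 0.906 in KO, 1.10 in both control libraries) and tested over all genes by the robust quasi-likelihood F-test of edgeR 4.0.16 with group as the only term, Benjamini-Hochberg adjustment and a threshold of 0.05. The SE is the log2 fold change over the square root of F. Floors are 3 counts, and floors and intervals cover counting error only.

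The alternatives used upper-quartile or RLE factors, no filter, a stricter filter (mean count of at least 10 and 1 CPM in 2 libraries), DESeq2 1.42.0, limma-voom (limma 3.58.1), a replicate block, thinning of KO counts to 18860399, each library left out, and ratios per kb. Named genes were all members, BCL7A, up to 4 called genes per pathway list by smallest p, up to 2 per marker list by level and 3 like TRAF3 and MAP3K14 in pattern, with 0.5 added to CPM before log2. Genes named only as at 0, as markers, as not called or as passing the filter through the control group alone were chosen after their values were seen. The members and lists were chosen with earlier results of these data known.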

Additional observations from a re-analysis of the deposited data

How the results depend on the processing

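Over 12 alternatives, the 8 members called lower in KO kept their direction and their call, as did BCL7A (log2 fold change -5.69 to -5.06) and the 24 named genes of the pathway lists. BIRC2 kept its direction (0.09 to 0.30) but lost its call with upper-quartile factors (adjusted p = 0.0609), which left 0 members called higher. The count of called genes stayed within 1.5 times under every alternative, between 5510 and 7227 higher and between 5560 and 8110 lower, and that of all pathway lists summed did so too. With upper-quartile factors, 3 of the other TRAF and IAP genes and 2 of the IKK and NF-kB subunit genes were higher in KO. NFKB2, named for its ratio, is not among the 24 genes above. With DESeq2, 3 IKK and NF-kB subunit genes were lower in KO (NFKB1, RELA and RELB), against 4 in the main fit, so NFKB2 lost its call. Ranges over the alternatives were -2.25 to -2.03 for TRAF3, -2.90 to -2.68 for BIRC3, -1.42 to -1.20 for MAP3K14, -4.18 to -3.51 for CD40 and -11.05 to -7.36 for TNFAIP2. Thinning the KO libraries to the depth of the control libraries moved TNFRSF8 to -8.13. The replicate numbers do not pair the libraries by the labels, and deviations of same-numbered libraries from their group means correlated at r = -0.00894 over 17885 genes; with the replicate block, 6365 genes were higher and 6922 lower, and all 9 members kept their call (TRAF3 -2.12, BIRC2 0.22). Ratios per kb multiply both groups by the same factor but move levels: TRAF3 over TRAF2 averaged 0.618 per kb and 2.10 by counts in the KO libraries. Depth limits LTBR, TNFAIP2, CD40 and several ligands.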
